A study of Rattus norvegicus with 8 samples.

Results

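Interleukin-1, interleukin-6 and tumour necrosis factor are the early cytokines of inflammation, and 10 of their genes were followed in healing and uninjured rat ligament at 3 weeks. The ligand side held Il1a, Il1b, Il6, Tnf and the antagonist Il1rn. The receptor side held Il1r1, Il1r2, Il6r, Il6st and Tnfrsf1a. Every probe set whose only gene symbol was a member was taken, which gave 18 of the 8799 probe sets on the array, 10 for ligands or the antagonist and 8 for receptors. The rule read gene symbols and no signal values, but the members were chosen with earlier results of these data known. The genes had 1 to 4 probe sets each, and different probe sets of a gene are kept apart here because they share a target and are no replicates.

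RNA came from medial collateral ligaments of rats, measured on 8 one-colour arrays in 4 groups of 2. Unloaded healing rats had both ligaments disrupted and were put on hindlimb unloading by tail suspension 24 h after surgery. Loaded healing rats had the same injury and walked freely as far as the labels say. Unloaded controls were tail-suspended without any sham operation, and loaded controls had a sham operation, so unloading and sham surgery cannot be told apart between the control groups. All ligaments were taken at 3 weeks. The labels leave strain, age and sex unstated, as well as whether an array stands for 1 animal or a pool, so the p-values reflect array-to-array spread that may be technical. The values are linear signal intensities, scaled between arrays by the authors.

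In injured tissue, macrophages and other cells release IL-1 and TNF, which drive NF-kB in neighbouring cells and raise IL-6, chemokines and matrix-degrading enzymes. IL-1 alpha and beta signal through IL-1R1, while IL-1ra occupies that receptor without a signal and IL-1R2 binds IL-1 as a decoy. IL-6 binds IL-6R, which then pairs with the signalling chain gp130 (Il6st), and TNF acts on most cells through TNFR1 (Tnfrsf1a). In ligament and tendon these cytokines are known for the first inflammatory days after injury and for inducing collagenases in fibroblasts.

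The upstream sequence of the 4 cytokine genes is shown because these promoters take the known inflammatory inputs, and because it sets the genes with a probe set above background on every array (Il1a and Il1b) beside those read mostly or wholly below it (Il6 and Tnf). Each run covers the 250 bases before the RefSeq start on assembly GRCr8, 5' to 3' on the gene's strand. Capitals mark matches, on either strand, to the letters TATAAA for the TATA box, GGANTTTCC for an NF-kB site, TGACGTCA for the cyclic AMP response element or TTGNGCAA for a C/EBP site. No matches overlapped in these windows.
Il1a (chr3:136990018-136990267, minus strand): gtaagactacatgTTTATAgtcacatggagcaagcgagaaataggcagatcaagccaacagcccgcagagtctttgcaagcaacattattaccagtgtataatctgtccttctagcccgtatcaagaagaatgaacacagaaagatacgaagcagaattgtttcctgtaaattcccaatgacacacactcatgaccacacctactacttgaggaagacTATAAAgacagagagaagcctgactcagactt
Il1b (chr3:137036582-137036831, minus strand): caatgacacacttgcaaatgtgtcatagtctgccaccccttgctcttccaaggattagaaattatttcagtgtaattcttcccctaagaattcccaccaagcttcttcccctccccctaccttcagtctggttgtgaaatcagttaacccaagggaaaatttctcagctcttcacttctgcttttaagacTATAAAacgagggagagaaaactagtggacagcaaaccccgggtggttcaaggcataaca
Il6 (chr4:5894576-5894825, minus strand): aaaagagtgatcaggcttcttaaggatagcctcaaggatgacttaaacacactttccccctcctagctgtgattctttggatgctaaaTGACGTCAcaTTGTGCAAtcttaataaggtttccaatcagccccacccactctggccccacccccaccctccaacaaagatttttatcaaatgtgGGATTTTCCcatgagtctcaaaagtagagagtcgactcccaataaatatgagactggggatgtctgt
Tnf (chr20:3626435-3626684, plus strand): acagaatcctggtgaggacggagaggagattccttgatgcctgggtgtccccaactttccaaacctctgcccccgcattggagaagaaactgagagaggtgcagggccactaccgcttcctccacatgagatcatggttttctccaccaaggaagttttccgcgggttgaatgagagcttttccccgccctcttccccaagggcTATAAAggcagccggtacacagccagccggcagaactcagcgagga
Il1a, Il1b and Tnf held TATAAA on their own strand, beginning 32, 60 and 46 bases before the start. The Il6 window held the cyclic AMP element from base 162, the C/EBP letters from base 152 and the NF-kB letters, read as GGATTTTCC, from base 67 before the start. Over 33469 rat promoter windows of the same length, the TATA box letters occurred in 12.9%, the NF-kB letters in 1.08%, the cyclic AMP element in 1.59% and the C/EBP letters in 2.29%. Of the 9 members with a window in the table, 4 held the TATA box letters on either strand and 1, Il6, held each of the other motifs. A match describes letters, not binding, and says nothing of how active a gene was in these ligaments. The search took only the letters given, so a window without a match may still hold a site written in other letters.

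Most of these probe sets were not read above background on every array at 3 weeks. The table carries no detection calls, so the background threshold of an array was set at the 90th percentile of its 15 Bacillus subtilis control probe sets, which match no rat transcript. It ran from 154.0 to 450.4 over the 8 arrays and was highest on the unloaded control arrays (450.4 and 406.9). Above it on all 8 arrays lay 3 of the 18 probe sets, D00403_at of Il1a, M98820_at of Il1b and Z22812_at of Il1r2, against 22.5% of all 8740 probe sets that are not controls. On no array above it lay 7 of the 18, against 23.2% of all.

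By group, 4 of 18 probe sets exceeded the threshold on both unloaded healing arrays (34.8% of all probe sets did), 6 on both loaded healing arrays (47% of all), 4 on both unloaded control arrays (32.6%) and 5 on both loaded control arrays (40.2%). Of the 10 ligand and antagonist probe sets these were 2, 3, 2 and 2 in the same order of groups, and of the 8 receptor probe sets 2, 3, 2 and 3. In no group were more than 3 probe sets of either kind above it. The thresholds were 277.5 and 370.1 on the unloaded healing arrays, 226.9 and 154.0 on the loaded healing arrays and 209.3 and 306.6 on the loaded control arrays.

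The ligands and the antagonist come first. Il1a encodes IL-1 alpha, which is stored in cells and released by damage. Probe set D00403_at of Il1a read 892.6 and 592.1 in unloaded healing, 1037.5 and 724.1 in loaded healing, 1016.2 and 813.9 in unloaded controls, and 864.5 and 670.5 in loaded controls. All groups overlapped in each pair compared, and the highest array was 1.75 times the lowest. In every group the array numbered 1 read higher than the array numbered 2. The second Il1a probe set of the same accession, D00403_g_at, read 526.1 and 284.1 in unloaded healing, 124.7 and 385.2 in loaded healing, 275.1 and 458.0 in unloaded controls, and 498.5 and 195.1 in loaded controls. It exceeded the threshold on 4 arrays, 1 in every group, and its arrays within a group differed more than the groups did. The third, E05489cds_s_at, ran from 10.4 to 238.7 and exceeded the threshold on 0 arrays.

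Il1b encodes IL-1 beta, the form that macrophages secrete after inflammasome cleavage. Its probe set M98820_at read 564.7 and 485.4 in unloaded healing, 735.4 and 903.3 in loaded healing, 1071.1 and 916.5 in unloaded controls, and 558.1 and 680.0 in loaded controls. Both loaded healing arrays lay above both loaded control and both unloaded healing arrays, and the unloaded controls were highest of all. The other probe set of that accession, M98820_g_at, read 61.5 and 411.1 in unloaded healing, 76.2 and 102.2 in loaded healing, 465.4 and 104.2 in unloaded controls, and 60 and 98.2 in loaded controls. It passed the threshold on unloaded healing 2 and unloaded control 1 alone. E01884cds_s_at ran from 30.5 to 106.9, below the threshold on every array. The order of groups seen with M98820_at thus had no counterpart above background in the other Il1b probe sets.

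Il1rn (M63101cds_at), the receptor antagonist, ran from 65.5 to 140.4 and was below the threshold on all 8 arrays. Tnf (E02468cds_s_at) read 59.6 and 58.3 in unloaded healing, 61.1 and 121.7 in loaded healing, 106.0 and 79.7 in unloaded controls, and 56.4 and 94.2 in loaded controls. It too was below the threshold throughout, so no difference in Tnf could be measured between groups. Il6, the cytokine of the acute-phase response, had M26745cds_s_at at 38.7 to 121.3, below the threshold everywhere. Its other probe set, M26744_at, read 383.5 and 112.5 in unloaded healing, 342.9 and 332.7 in loaded healing, 85.4 and 388.3 in unloaded controls, and 72.2 and 481.6 in loaded controls. Only the loaded healing arrays were both above the threshold. They lay close together between widely separated arrays of each of the other groups, and all groups overlapped.

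**Figure D1:**
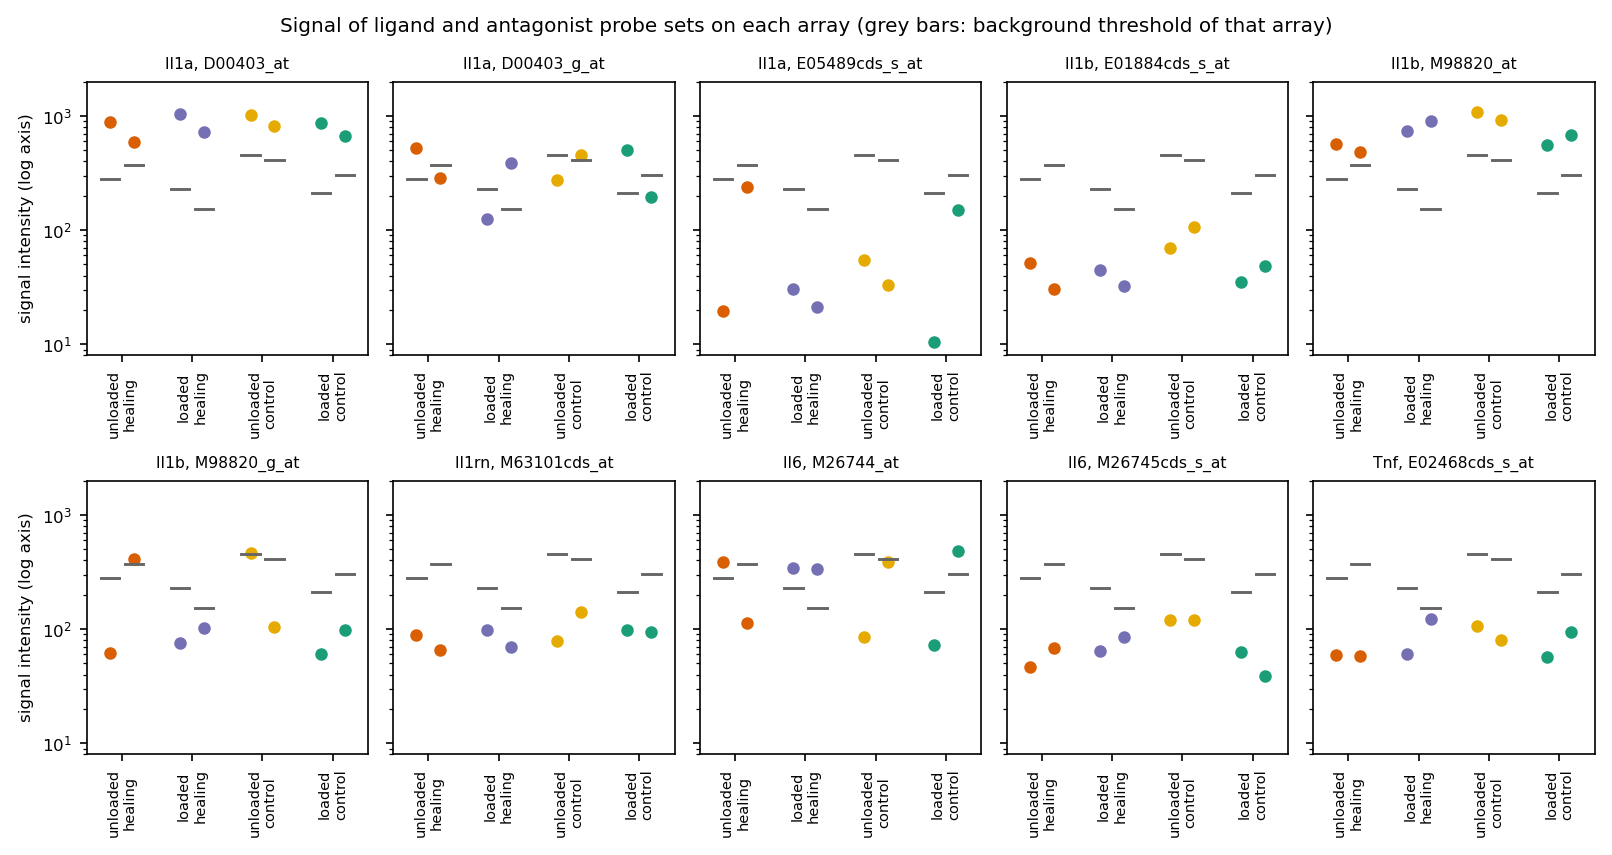
Signal intensity (log axis) of the 10 ligand and antagonist probe sets on each of the 8 arrays, 2 points per group, with the background threshold of the array as a grey bar. D00403_at of Il1a and M98820_at of Il1b lie above the bar on all 8 arrays, while Tnf and Il1rn lie below it on all 8.

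Among the receptors, the decoy receptor gene Il1r2 (Z22812_at) read 749.5 and 823.8 in unloaded healing, 720.6 and 777.4 in loaded healing, 1241.6 and 1242.5 in unloaded controls, and 682.7 and 1157.4 in loaded controls. It was above background on every array, with the unloaded control arrays highest and the healing groups overlapping. The signalling receptor Il1r1 had 4 probe sets and none was above the threshold on both arrays of any group. Its M95578_g_at read 379.9 and 64.4 in unloaded healing, 130.9 and 128.4 in loaded healing, 218.3 and 571.3 in unloaded controls, and 215.2 and 235.9 in loaded controls. M95578_at ran from 72.9 to 326.7, U14010_at from 28.0 to 68.7 and U14010_g_at from 67.7 to 132.8.

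Il6r (M58587_at), the IL-6 binding chain, read 284.7 and 96.1 in unloaded healing, 286.2 and 650.1 in loaded healing, 509.4 and 493.8 in unloaded controls, and 392.2 and 316.9 in loaded controls. The unloaded healing arrays were the lowest pair, and unloaded healing 2, the lowest array, was the only one below its threshold. The unloaded and loaded healing arrays did not overlap, by a margin of 284.7 against 286.2. Il6st (M92340_at), which encodes gp130, read 49.7 and 44.1 in unloaded healing, 100.9 and 214.3 in loaded healing, 99.6 and 402.7 in unloaded controls, and 52.3 and 179.7 in loaded controls. It exceeded the threshold on loaded healing 2 alone.

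Tnfrsf1a (M63122_at), which encodes TNFR1, read 280.2 and 400.0 in unloaded healing, 488.5 and 297.3 in loaded healing, 408.0 and 388.2 in unloaded controls, and 280.9 and 318.8 in loaded controls. It stayed within 1.74 times from lowest to highest array. It exceeded the threshold on 6 arrays and lay just under it on both unloaded controls, where the threshold was highest.

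**Figure D2:**
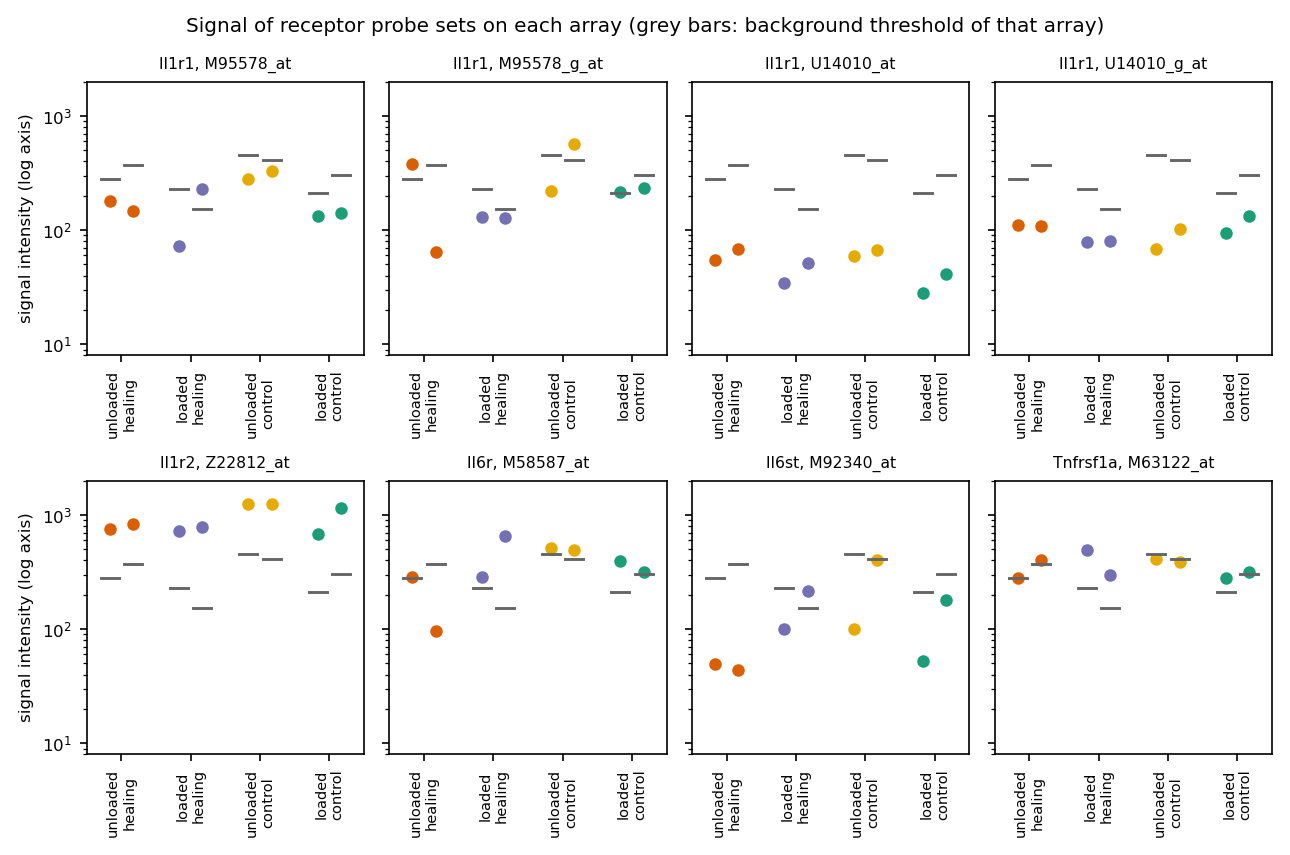
Signal intensity (log axis) of the 8 receptor probe sets on each array, drawn as for the ligands. Z22812_at of Il1r2 lies above the grey threshold bar on all 8 arrays, and the 4 Il1r1 probe sets lie mostly at or below it.

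The differences between groups were tested with limma over all probe sets on log2 of signal plus an offset of 45.8, after removal of the dimmest 40%. Of the 18 member probe sets 8 remained, 4 for ligands and 4 for receptors: D00403_at, D00403_g_at, M98820_at, M26744_at, M95578_g_at, Z22812_at, M58587_at and M63122_at. Differences below are log2 ± SE with 95% intervals and p-values adjusted by Benjamini-Hochberg over 5244 probe sets. They are given for the 5 probe sets above background on at least 6 arrays. The other 3, D00403_g_at, M26744_at and M95578_g_at, had SEs of 0.65 to 0.86 in the pairwise comparisons and limma adjusted p-values from 0.539 to 0.998 over all comparisons. The offset shrinks the differences of dim probe sets.

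Whether injury changed these genes under normal weight bearing was asked by loaded healing against loaded control. Of the 8 tested member probe sets 0 passed at an adjusted p of 0.05 with limma, and 0 had an unadjusted p under 0.05, while 2.02% of all tested probe sets passed and 11.7% had such an unadjusted p. Il1b (M98820_at) differed by 0.38 ± 0.33 (interval -0.35 to 1.11, limma adjusted p = 0.776), which is 1.30-fold. Tnfrsf1a differed by 0.31 ± 0.47 (-0.73 to 1.36), Il6r by 0.27 ± 0.57 (-1.01 to 1.55) and Il1a (D00403_at) by 0.18 ± 0.35 (-0.61 to 0.96). Il1r2 read -0.24 ± 0.32 (-0.96 to 0.49), and 0.15 when arrays were scaled to their spike-in controls. The intervals for Il1a, Il1b and Il1r2 leave room for changes of about 1 log2 unit and those for Il6r and Tnfrsf1a for more. The median over the 8 was 0.22, beside -0.03 over all tested probe sets. Among all 18, the loaded healing arrays lay wholly above the loaded controls for 2 and wholly below for 2, against 18.1% and 19.7% of all probe sets. Such counts and shares, here and below, include probe sets that were below background on every array.

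Macrophage transcripts did rise in the same comparison. Of 5 tested macrophage and monocyte markers 3 rose with limma: Lyz2 (lysozyme) by 3.09 ± 0.24 (adjusted p = 0.000223), Ctss (cathepsin S) by 2.00 ± 0.27 (adjusted p = 0.00422) and Lgals3 (galectin-3) by 1.73 ± 0.28 (adjusted p = 0.0123). The summed signal of the 8 macrophage markers on the array was 6412 and 7159 in unloaded healing, 25267 and 23012 in loaded healing, 4116 and 3956 in unloaded controls, and 5478 and 5680 in loaded controls. Most of the sum in loaded healing was Lyz2, at 16260.4 and 13978.0. The sum thus follows the brightest marker and does not show a rise of all 8. In this whole tissue, more cells of a type and more RNA per cell cannot be told apart, and the part of cell numbers in the cytokine values was not tested.

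The effect of unloading on the injured ligament was asked by unloaded against loaded healing. With limma 0 of the 8 passed and 0 had an unadjusted p under 0.05, beside 1.62% and 10.9% of all tested probe sets. Il6r had the largest difference among the 5, at -1.15 ± 0.57 (-2.43 to 0.13, adjusted p = 0.542). Without unloaded healing 2, its lowest array, the Il6r difference was -0.54, and without loaded healing 2, its highest, -0.62. Over all arrays left out 1 at a time the Il6r difference ran from -1.76 to -0.54. Il1b differed by -0.60 ± 0.33 (-1.33 to 0.14, adjusted p = 0.579), with both unloaded arrays below both loaded ones. Il1a (-0.24 ± 0.35), Tnfrsf1a (-0.17 ± 0.47) and Il1r2 (0.07 ± 0.32, and -0.40 with spike-in scaling) lay nearer to 0. The median of the 8 was -0.20, beside 0.06 over all. Macrophage markers moved in this comparison too: 3 of the 5 tested fell with limma, Lyz2 at -2.60 ± 0.24 (adjusted p = 0.000689), Lgals3 at -1.46 ± 0.28 (adjusted p = 0.0334) and Ctss at -1.43 ± 0.27 (adjusted p = 0.0297). Of 8 tested fibroblast markers 2 fell with limma and 0 rose, Col1a2 at -1.99 ± 0.19 (adjusted p = 0.000888) and Col3a1 at -1.20 ± 0.23 (adjusted p = 0.0344). Of 5 tested skeletal muscle markers 1 fell and 0 rose, Myh4 at -1.42 ± 0.26 (limma adjusted p = 0.0255). The part of these cell types in the member values was not tested. Unloaded healing lay wholly above loaded healing for 2 of the 18 and wholly below for 4, against 21.6% and 16.9% of all probe sets.

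The comparisons with unloaded controls rest on arrays that stood apart. Over the tested probe sets their log2 signals correlated at 0.492 to 0.608 with the other 6 arrays, which correlated at 0.761 to 0.872 with each other. Of the 8 ligament fibroblast markers on the array, such as type I collagen and decorin, 2 were above background on both unloaded control arrays, against 8, 7 and 8 on both arrays of unloaded healing, loaded healing and loaded controls. Their summed signal was 2784 and 2489 in unloaded controls, 47730 to 122115 on the other arrays, so the markers of the labelled tissue were low on these arrays. Median signal was 313.4 and 315.3 there, above 238.5 to 285.6 elsewhere.

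In unloaded rats, healing was set against those controls, which had no sham operation, so injury and surgery cannot be told apart here. With limma 0 of the 8 passed, 2 had an unadjusted p under 0.05, and the shares of all tested probe sets were 7.46% and 19.1%. With median centring 0 of the 8 had an unadjusted p under 0.05, with quantile normalization 1, and with single arrays left out 0 to 3. The 2 were Il1b at -0.86 ± 0.33 (-1.60 to -0.13, adjusted p = 0.180) and Il6r at -1.34 ± 0.57 (-2.62 to -0.06, adjusted p = 0.242). Leaving out 1 array at a time gave -1.95 to -0.73 for Il6r, the latter without unloaded healing 2. Il1r2 differed by -0.63 ± 0.32 (-1.35 to 0.09, adjusted p = 0.322), Il1a by -0.30 ± 0.35 and Tnfrsf1a by -0.22 ± 0.47, and with median centring Il1a stood at -0.10 and Tnfrsf1a at -0.019. The median over the 8 was -0.47, and that over all tested probe sets was also below 0, at -0.23. Of the 18, 8 had unloaded healing wholly below and 1 wholly above unloaded control, against 32.8% and 15.2% of all probe sets.

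Between uninjured ligaments, unloaded against loaded control, 0 of the 8 passed with limma and 0 had an unadjusted p under 0.05 (6.81% and 17.8% of all). Il1b differed by 0.65 ± 0.33 (-0.09 to 1.38, adjusted p = 0.347), Il1r2 by 0.46 ± 0.32 (-0.26 to 1.18), Il6r by 0.46 ± 0.57, Tnfrsf1a by 0.36 ± 0.47 and Il1a by 0.24 ± 0.35. The median was 0.41, beside 0.23 over all. Of the 18, the unloaded controls lay wholly above the loaded controls for 9 and wholly below for 0, where 34.2% and 13.5% of all probe sets did. Only 4 of those 9 were tested probe sets. With arrays centred on their medians, Il1b differed by 0.40, Il1r2 by 0.22, Il6r by 0.21, Tnfrsf1a by 0.12 and Il1a by -0.00041, the lowest limma adjusted p of a member was 0.707 and the median over all was -0.01. Of the 5 tested macrophage markers 2 fell here, and Ctss, at 734.8 and 770.0 in unloaded controls and 673.3 and 673.1 in loaded controls, did not pass.

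**Figure D3:**
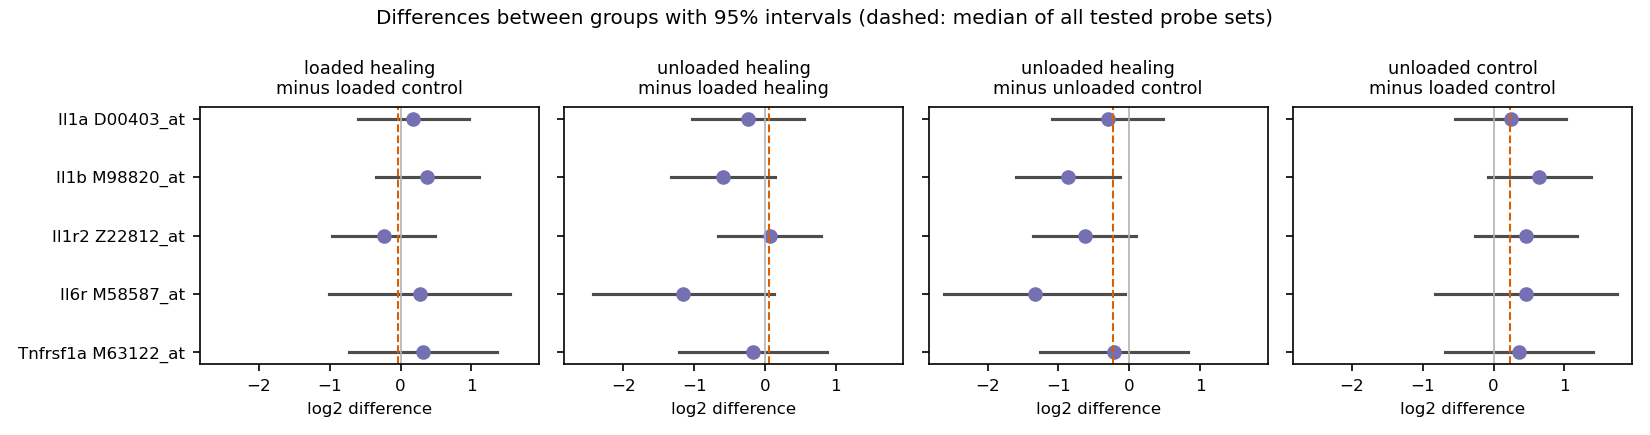
Log2 differences (points) with 95% intervals (lines) for the 5 probe sets above background on at least 6 arrays, in 4 comparisons of 2 arrays each, with the median of all tested probe sets dashed. Most intervals include 0, and the Il1b and Il6r intervals for unloaded healing minus unloaded control end just below it, at -0.13 and -0.06, before adjustment.

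Unloaded healing against loaded control sets apart the groups that differ in both factors. With limma 0 of the 8 passed and 0 had an unadjusted p under 0.05, beside 0.0763% and 5.55% of all tested probe sets, and unloaded healing lay wholly above loaded control for 2 of the 18 and wholly below for 3 (17.5% and 14.3% of all). Whether the injury effect differed with loading was tested by the interaction, the healing effect in unloaded rats minus that in loaded rats. Only the loaded controls had a sham operation, so loading and sham surgery cannot be told apart in the interaction. Here 0 of the 8 passed with limma and 1 had an unadjusted p under 0.05, beside 4.84% and 12.9% of all. That 1 was Il1b at -1.24 ± 0.46 (-2.28 to -0.21, adjusted p = 0.265), and Il6r stood at -1.61 ± 0.81 (-3.42 to 0.20, adjusted p = 0.470). Both rest on the unloaded control arrays.

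Other genes of the pathways were taken from 3 lists. In the order below these held 26, 38 and 32 genes, of which 15, 15 and 29 were on the array. Each gene was read from its brightest tested probe set only. Of 7 tested further ligands and receptors of the IL-1, IL-6 and TNF families 0 passed in any of the 6 comparisons with limma, and the same held for 12 tested genes of cytokine processing and signalling. Of all tested probe sets 2.02% passed in loaded healing against loaded control and 0.0763% to 7.46% in the other 5 comparisons. With lists this small, such counts are no result about these pathways. Of 22 tested acute-phase and cytokine target genes 1 rose in loaded healing against loaded control and 0 passed in the other 5 comparisons. It was Mmp13, the collagenase that IL-1 and TNF are known to induce in fibroblasts. Its probe set gave 1004.4 and 962.5 in loaded healing and 16.0 and 156.5 in loaded controls, where both arrays lay below background. Mmp13 was therefore at least 3.88-fold higher in loaded healing, with each loaded control array set at its threshold. The limma test did not use this bound. It gave a log2 difference of 3.20 ± 0.63 (adjusted p = 0.0340), whose size depends on the offset. The Mmp13 probe set gave 195.3 and 263.5 in unloaded healing and 265.5 and 173.5 in unloaded controls, all below background. The lists' medians in loaded healing against loaded control were -0.28, -0.21 and 0.12 in the order given, beside -0.03 over all tested probe sets.

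**Figure D4:**
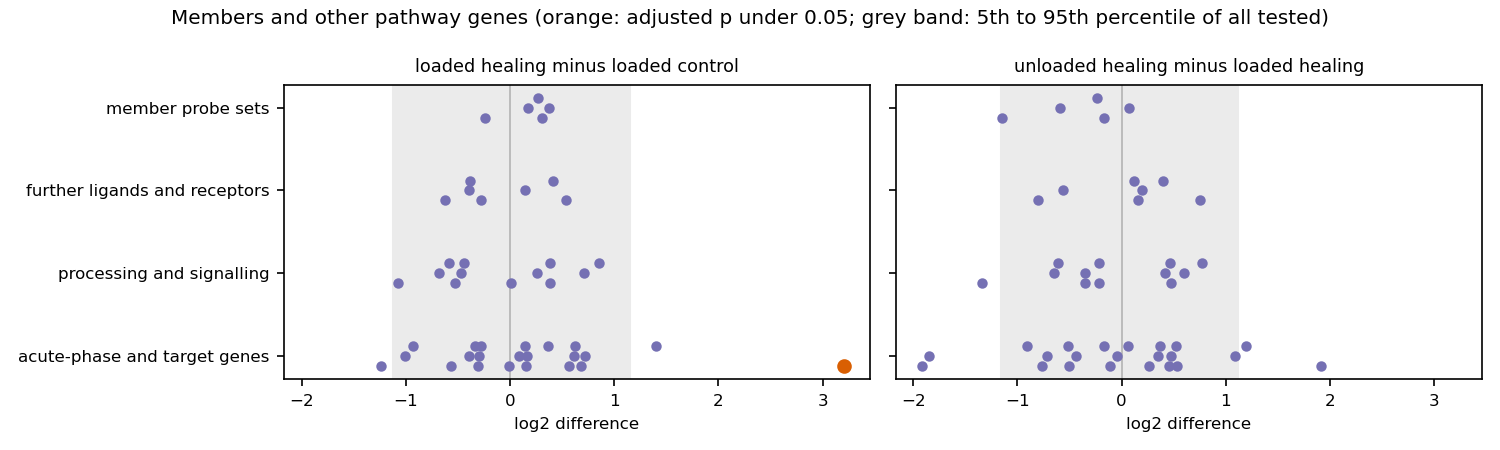
Log2 differences of the 5 member probe sets and of the tested genes of 3 pathway lists, for loaded healing minus loaded control and unloaded healing minus loaded healing, with the 5th to 95th percentile of all tested probe sets as a grey band. The single point with an adjusted p under 0.05 is Mmp13 in the first comparison, whose position depends on the offset because its loaded control arrays lay below background.

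The genes that most resembled the brightest ligand and receptor probe sets over the 8 arrays are given as a description. For Il1a (D00403_at), among 4173 probe sets of other genes, Pearson correlations of log2 signal were highest for Mx1 (r = 0.921, Spearman 0.905), Gas5 (0.919 and 0.952) and Dlg4 (0.919 and 0.952). For Il1r2 (Z22812_at), among 4174, they were highest for Kcnh8 (0.976 and 0.905), Crhbp (0.965 and 0.857) and Neurod2 (0.954 and 0.833). All 3 genes like Il1r2 read highest on the unloaded control arrays, as Il1r2 did, for example Neurod2 at 1065.5 and 992.4 there and 162.7 to 539.7 elsewhere. Neurod2 lay below background on loaded control 1, loaded healing 1 and unloaded healing 1, and Crhbp on these and unloaded healing 2. Mx1 lay below it on unloaded healing 2. The 8 arrays share their scaling, and 2 of them stand apart from the rest.

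Markers of other cell types were measured too. The summed signal of the 4 neutrophil markers on the array was 532 and 1299 in unloaded healing, 842 and 1506 in loaded healing, 1363 and 1585 in unloaded controls, and 727 and 1140 in loaded controls, and 0, 1, 1 and 1 of them were above background on both arrays in that order of groups. Of the 10 lymphocyte and mast cell markers 4, 5, 4 and 4 were, and Cd3d was below background on all 8 arrays, as was Csf1r among the macrophage markers. The summed signal of the 4 endothelial markers was 2311 and 5606 in unloaded healing, 1702 and 5053 in loaded healing, 5056 and 6014 in unloaded controls, and 1395 and 5117 in loaded controls, higher on the array numbered 2 in every group. That of the 5 skeletal muscle markers was 10085 and 7604 in unloaded healing, 16076 and 11082 in loaded healing, 3691 and 3291 in unloaded controls, and 7839 and 7284 in loaded controls. Of the muscle markers Acta1 (skeletal alpha-actin) rose with limma in loaded healing against loaded control by 1.18 ± 0.25 (adjusted p = 0.0453). Of the 8 tested fibroblast markers 0 rose and 1, Comp (cartilage oligomeric matrix protein), fell in that comparison, at -2.74 ± 0.45 (adjusted p = 0.0134). The part of these cell types in the member values was not tested.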

How the data were processed

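The authors deposited linear signal intensity per probe set for 8 arrays, already scaled between arrays: the 2% trimmed mean lay between 500.3 and 500.6 on each. The summarisation software is not given in the sources used here. Each probe set took its symbol from the array's annotation table, and all 10 members matched RefSeq (rat assembly GRCr8) by Entrez identifier with the same symbol. The 59 control probe sets were set aside, an offset of 45.8, at the 10th percentile of the signals, went in ahead of log2, and the 3496 probe sets with the lowest mean were removed, which left 5244. The last kept had a mean log2 of 7.89. A model with 1 mean per group was fitted to all 8 arrays with limma 3.58.1 in R 4.3.3 (4 residual and 5.81 prior degrees of freedom, trended prior). A run on simulated data required only that planted differences came back at about their size on average, and the power of the tests is not given. Tests were two-sided, with a threshold of 0.05. The number of arrays limits the precision.

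The members, lists and tests were chosen with earlier results of these data known, and the limit of 6 arrays for giving differences was set with the values seen. Named genes are every member, pathway list genes past the threshold (up to 4 per list and comparison) and the 3 nearest patterns. Cell type markers named with a change were chosen after their values were seen. Each pathway list gene and cell type marker was read from its brightest probe set only. Alternatives covered normalization, offset, filter, variance prior, replicate block, arrays in the fit and the background threshold.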

Additional observations from a re-analysis of the deposited data

How the results depend on the processing

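Under all 20 other settings 0 member probe sets passed with limma in any of the 6 comparisons, without a filter as well, where all 18 were tested. The lowest member adjusted p under any of them was 0.451 for loaded healing against loaded control, 0.210 for unloaded against loaded healing, 0.12 for unloaded healing against unloaded control, 0.264 for unloaded against loaded control, 0.543 for unloaded healing against loaded control and 0.108 for the interaction. Of 475 alternative values of the member differences, 463 kept their sign and 12 did not. Filter, variance prior, replicate block and arrays of groups not compared cannot change a pairwise difference. The sign was therefore fixed in advance for many of these values. Scaled to the spike-in controls, Il1r2 read 0.15 in loaded healing against loaded control and -0.40 in unloaded against loaded healing, while the median of all probe sets moved from -0.03 to 0.34 and from 0.06 to -0.40. Relative to these medians Il1r2 lay below the median in the first and level with it in the second. Median centring gave Il1a -0.00041 in unloaded against loaded control. Leaving out 1 array at a time in loaded healing against loaded control gave -0.60 to 0.12 for Il1r2, -0.069 to 0.42 for Il1a, -0.0085 to 0.63 for Tnfrsf1a and -0.26 to 0.80 for Il6r. In unloaded against loaded healing it gave -0.52 to 0.039 for Il1a and -0.49 to 0.15 for Tnfrsf1a, and in unloaded healing against unloaded control -0.45 to 0.0065 for Tnfrsf1a. Of 25 member differences 18 had such a value over 1.5 times away or of the other sign, among them Il1b in loaded healing against loaded control (0.24 to 0.52) and Il1a in unloaded healing against unloaded control (-0.58 to -0.026). Members with an unadjusted p under 0.05 numbered 0 to 3 over the settings for unloaded healing against unloaded control, 0 to 2 for unloaded against loaded healing and the interaction, and at most 1 for the rest. With the highest Bacillus subtilis control as threshold, 2 member probe sets were above background in unloaded healing and 3 in loaded controls, and with the 40th percentile of all probe sets 7 were in unloaded controls. On all 8 arrays, 2 were above the highest control and 4 above the 40th percentile or the median of all probe sets. Il1b M98820_at was not above the highest control on unloaded healing 2, at 485.4 against 497.3. The cause was not tested.

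Calls over all probe sets moved more: from 106 to between 27 (without loaded healing 1) and 126, from 85 to between 16 (variance prior without trend) and 137 (spike-in scaling), from 391 to up to 628 and from 357 to up to 593 (both quantile normalization), and from 4 to between 0 and 7. With the replicate number as a block, member calls stayed at 0 and all calls were 123 for loaded healing against loaded control and 102 for unloaded against loaded healing. Deviations of same-numbered arrays correlated at 0.159 to 0.204 among the 3 groups without the unloaded controls and at 0.00078 to 0.0144 with the unloaded controls. The labels do not say that a number marks a shared batch, so the numbers were not taken to pair the arrays. With the block Il1a, lower in unloaded than in loaded healing within both numbers, had an adjusted p of 0.826 there. Dim signal limits most members: 10 of 18 probe sets fell under the filter.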
